A study of Mus musculus with 18 samples.

Results

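Expression of 10 genes that mark macrophages and equip them to clear dying cells and debris was followed through blood development in culture and in fibroblasts driven towards blood. The genes were listed by name, as receptors and complement chains that define mature macrophages: *Csf1r*, *Emr1* (now *Adgre1*), *Mrc1*, *Msr1*, *Cd14*, *Cd36*, *Mertk*, *C1qa*, *C1qb* and *C1qc*. Of these 10, 9 were found among the 20310 genes of the stages, where *Cd36* was not analysed, and all 10 among the 20495 rows of the fibroblasts. The stages came from a mouse ES cell line of strain 129 with a GFP reporter at Brachyury, grown on mouse embryonic fibroblasts (MEFs), and comprised embryonic stem cells (ESC), mesoderm (MES, reporter positive and FLK1 negative), hemangioblasts (HB, positive for both), hematopoietic progenitors (HP, sorted on CD41) and macrophages (MAC, cultured from the CD41 positive cells until they carried CD11b), with 2 replicates per stage that the values combine into 1. All the stages thus come from 1 cell line. The fibroblasts were MEFs of strain 129 from mid-gestation embryos, either wild type or carrying a doxycycline-inducible TAL1 cassette with rtTA (the labels do not say which library had which), sorted to lack CD45, CD41, CD31 and CD117. They were left untreated (uFIB) or given vectors or the induced allele for *Scl* (*Tal1*) and *Lmo2* (SL), for *Scl*, *Fli1*, *Gata2* and *Lmo2* (SFGL), or for *Fli1*, *Gata2* and *Lmo2* (FGL), and were collected on day 12 or day 21, 1 library for each. The methods give the transduced cells a medium with blood cytokines that include M-CSF, GM-CSF and IL3.

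Macrophages engulf dying cells and microbes and depend on the cytokine CSF1, which signals through the receptor kinase CSF1R. Soluble and surface proteins divide the work of recognition. C1q, a protein built from A, B and C chains, opens the classical complement pathway and coats apoptotic cells. CD14 hands lipopolysaccharide to TLR4. MRC1 (a mannose receptor), MSR1 and CD36 take up sugars, modified lipoproteins and lipids, and MERTK binds phosphatidylserine on dying cells through bridging proteins. CD36 and MERTK are also made by cells outside the blood, whereas EMR1, the antigen F4/80, is a classical marker of mouse macrophages.

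Expression is given as FPKM, a read density scaled to transcript length and library size, and changes as differences of log2(FPKM + 1), which understate the change of genes near 0. A gene was called higher or lower where FPKM + 1 differed at least 2-fold and at least 1 FPKM was reached in 1 of the 2 samples. With 1 value per stage and 1 library per condition there was no replicate spread, and no test between stages or treatments was possible. The summed FPKM of the stages lay between 180554 and 201844 up to HP and reached 381686 in MAC. In the fibroblast libraries, relative depth, estimated from the step between low values, was 0.587 to 1.56 times that of uFIB at day 12, with 15.0% to 19.1% of low genes at that step. The library labelled FGL held *Tal1* at 7.04 FPKM at day 12, although the label names no *Scl*, and *Fli1* at day 21 at 3.35 FPKM beside 3.02 FPKM in uFIB. The values of FGL are therefore given for the library with that label.

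The 9 genes measured in the stages were near absent until the HP stage and were all higher in MAC. None of the 9 reached 1 FPKM in ESC, MES or HB, so none was called from ESC to MES, where 6.95% of all 10605 genes tested were higher and 7.3% lower, or from MES to HB, where 2.53% were higher and 3.3% lower. From HB to HP, 2 of the 9 were higher, *Cd14* and *Csf1r*, against 8.88% of 10507 genes, and none was lower, against 8.79%. They were the only 2 of the 9 to reach the 1 FPKM that all tested genes had to reach. From HP to MAC, 9 of the 9 were higher, against 33.4% of 10824 genes higher and 13.9% lower. All but *Cd14* and *Csf1r* were under 1 FPKM in HP and so entered the tested genes only through MAC. For those a call of lower was not possible, whereas the genes tested also include some that entered through HP. The median change of the 9 was 6.70 on the log2 scale beside 0.45 over all genes tested. That background depends on scaling: 70.7% of the called genes were higher in MAC as deposited, 43.3% after scaling to the same upper quartile and 32.9% after scaling to the same sum, which shifted the median of all genes to -0.22 and -0.49, while the 9 genes were still all higher.

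**Figure D1:**
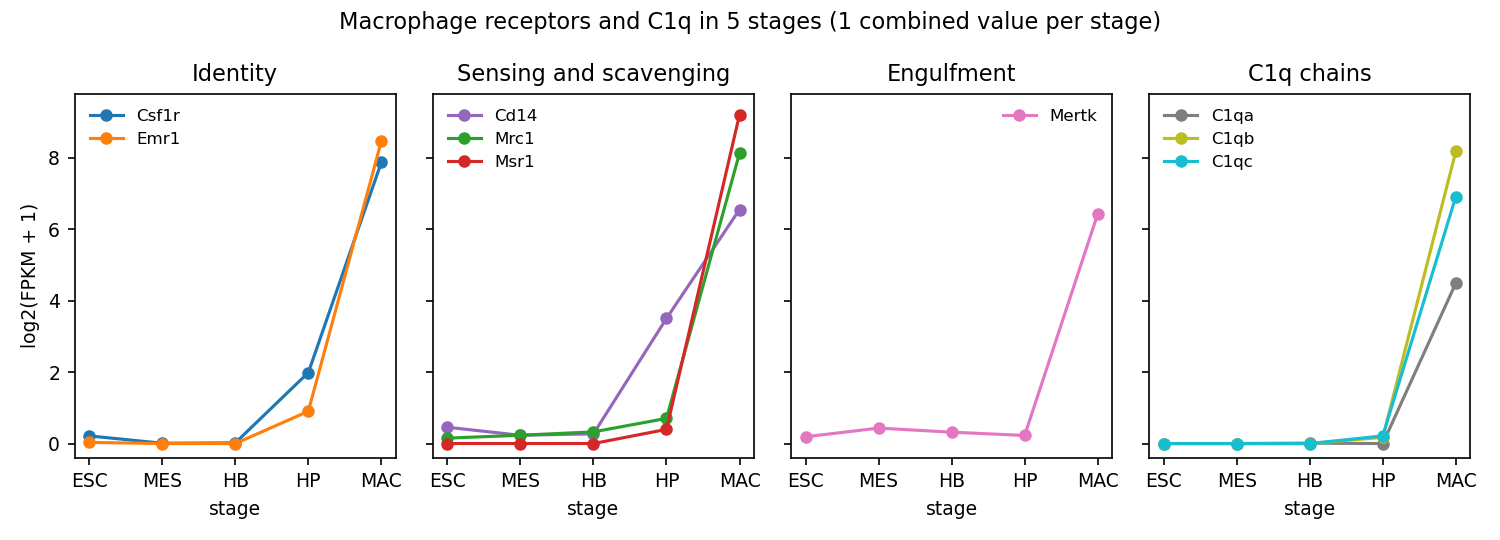
Level of 9 genes, as log2(FPKM + 1), across ESC, MES, HB, HP and MAC, with 1 combined value per stage joined by lines. Every gene lies below 1 on this axis up to HB. Cd14 reaches 3.50 and Csf1r 1.99 in HP, and all 9 are highest in MAC.

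*Csf1r*, the receptor for CSF1, had levels, stage by stage from ESC to MAC, of 0.159, 0.0066, 0.0129, 2.97 and 234 FPKM. It was thus called together with *Cd14* at HP, and was higher by a further 5.89 on the log2 scale in MAC. *Emr1* stood at 0.0226 FPKM in ESC, was listed at 0 in MES and HB, and had 0.871 FPKM in HP and 353 in MAC. Its HP value stayed under the limit of 1 FPKM, and its difference from HP to MAC was 7.56.

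Among the receptors for microbes and debris, *Cd14* came first and changed least thereafter. Its successive levels were 0.372 FPKM, 0.174 and 0.208 up to HB, then 10.3 at the HP stage and 92.8 in MAC. The difference from HB to HP was 3.23 and that from HP to MAC 3.05. On this scale *Cd14* alone of the 9 thus gained more before HP than after it. That ranking depends on the added 1, as *Csf1r* went from 0.0129 FPKM in HB to 2.97 in HP and 234 in MAC. *Mrc1* was measured at 0.111, 0.175, 0.254, 0.629 and 279 FPKM from ESC to MAC, a difference of 7.43 at the last step. *Msr1* was listed at 0 in ESC, MES and HB and had 0.316 FPKM in HP and 589 in MAC. It was the highest of the set in MAC, at rank 58 of all genes there. On log2(FPKM + 1) it had the largest HP to MAC difference of the 9, 8.81.

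*Mertk*, the receptor for phosphatidylserine bridges, stayed between 0.141 and 0.350 FPKM in the 4 stages before MAC (0.141, 0.350, 0.247 and 0.170 in turn) and stood at 84.9 FPKM in MAC. It was the only one of the 9 besides *C1qa* that was lower in HP than in HB, both being under 1 FPKM there. From HP to MAC its difference was 6.20.

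The C1q chains were under 1 FPKM in every stage before MAC, as were *Emr1*, *Mrc1*, *Msr1* and *Mertk*. *C1qa* was listed at 0 in ESC, MES and HP and at 0.00797 FPKM in HB, and it reached 21.5 FPKM in MAC. *C1qb* was listed at 0 up to HB and had 0.128 FPKM in HP and 289 in MAC. *C1qc* was likewise listed at 0 up to HB and had 0.160 FPKM in HP and 120 in MAC. The assembled protein holds the chains in equal number, whereas in MAC the level of *C1qb* was 13.4 times that of *C1qa* and 2.42 times that of *C1qc*. The genes lie side by side on the minus strand of chromosome 4 (mm10), *C1qb* at chr4:136880145-136886177, *C1qc* at chr4:136889802-136892914 and *C1qa* at chr4:136895916-136898844, with gaps of 3624 and 3001 bases and a span of 18700 bases.

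In MAC the order of levels from the top was *Msr1*, *Emr1*, *C1qb*, *Mrc1*, *Csf1r*, *C1qc*, *Cd14*, *Mertk* and *C1qa*. Neighbours such as *C1qb* with 289 and *Mrc1* with 279 FPKM could not be ordered beyond error, since no spread is known. MAC held a median of 99.7% of a gene's sum over the 5 stages, from 89.3% for *Cd14* to 99.96% for *C1qa*, and over 95% for 8 of the 9. Over all 11988 genes with at least 1 FPKM in a stage the median was 23.4%, and 2.74% of them had over 95% in MAC.

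**Figure D2:**
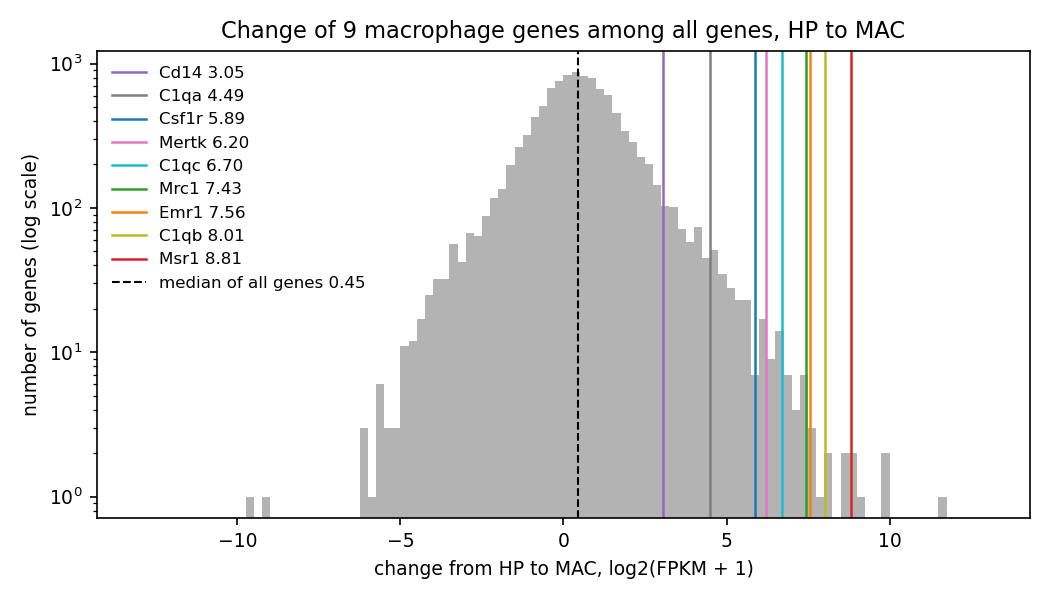
Distribution of the change from HP to MAC over all genes with at least 1 FPKM in either stage, as a difference of log2(FPKM + 1), with the number of genes on a log axis. Lines mark the 9 genes, from 3.05 for Cd14 to 8.81 for Msr1, all right of the dashed median of all genes at 0.45.

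Markers of other cells moved over the same step. The 4 general leukocyte genes *Ptprc*, *Laptm5*, *Coro1a* and *Cd52* summed to 72.4 FPKM in HP and 766 in MAC, and all 4 were higher. The 6 red cell markers summed to 6857 FPKM in HP and 22.3 in MAC. In MAC, the 7 neutrophil markers summed to 56.7 FPKM, the 4 mast cell markers to 18.9 and the 6 fibroblast markers measured to 2.24. In ESC, where *Csf1r* and *Cd14* had slightly more FPKM than in MES, the red cell markers summed to 54.2 FPKM and the leukocyte genes to 11.7, against 1.28 and 3.26 in MES. Their part in the levels of the 9 genes was not tested. As in all bulk samples, fewer cells of a type and less RNA per cell cannot be told apart. The label of MAC was met by the macrophage markers *Cd68* with 146 FPKM and *Fcgr1* with 158, besides *Csf1r*, *Emr1* and *Cd14*. *Itgam*, the gene of the sorting antigen CD11b, was not analysed in the stages.

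Promoters of genes that were higher together in MAC are shown to let their letters be compared. RefSeq promoter sequences (GRCm38.p6) were at hand for 5 of the 10 genes, of which *Cd36* was not analysed in the stages. For each, the 250 bases before the RefSeq start are printed 5′ to 3′ on the strand of the gene, and capitals mark ACTTCCT, the reverse complement of AGGAAGT, a form of the site of ETS factors such as PU.1. The windows are chr2:14229164-14229413 (plus) for *Mrc1*, chr4:136886201-136886450 (minus) for *C1qb*, chr4:136892915-136893164 (minus) for *C1qc*, chr2:128698665-128698914 (plus) for *Mertk* and chr5:17835897-17836146 (minus) for *Cd36*. The *Cd36* window lies wholly inside that gene as annotated by GENCODE, chr5:17781690-17888801. It therefore belongs to an internal start and not to the outermost start of the gene.
Mrc1: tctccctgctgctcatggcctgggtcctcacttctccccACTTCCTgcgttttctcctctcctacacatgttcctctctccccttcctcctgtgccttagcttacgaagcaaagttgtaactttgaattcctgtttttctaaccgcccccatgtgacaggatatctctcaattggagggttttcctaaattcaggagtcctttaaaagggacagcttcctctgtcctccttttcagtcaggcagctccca
C1qb: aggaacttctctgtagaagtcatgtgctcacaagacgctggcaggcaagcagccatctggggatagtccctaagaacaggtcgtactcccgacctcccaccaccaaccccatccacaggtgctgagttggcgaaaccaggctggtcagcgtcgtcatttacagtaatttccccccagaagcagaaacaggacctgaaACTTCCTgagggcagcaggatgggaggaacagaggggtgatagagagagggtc
C1qc: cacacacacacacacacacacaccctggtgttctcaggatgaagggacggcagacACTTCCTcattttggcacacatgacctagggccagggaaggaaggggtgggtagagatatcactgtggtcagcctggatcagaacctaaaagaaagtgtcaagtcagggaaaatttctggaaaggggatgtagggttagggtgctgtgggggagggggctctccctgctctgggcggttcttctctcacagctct
Mertk: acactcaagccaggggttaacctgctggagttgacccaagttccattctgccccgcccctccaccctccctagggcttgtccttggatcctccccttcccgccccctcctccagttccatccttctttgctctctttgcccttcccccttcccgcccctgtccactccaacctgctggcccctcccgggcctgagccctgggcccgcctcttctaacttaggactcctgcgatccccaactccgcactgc
Cd36: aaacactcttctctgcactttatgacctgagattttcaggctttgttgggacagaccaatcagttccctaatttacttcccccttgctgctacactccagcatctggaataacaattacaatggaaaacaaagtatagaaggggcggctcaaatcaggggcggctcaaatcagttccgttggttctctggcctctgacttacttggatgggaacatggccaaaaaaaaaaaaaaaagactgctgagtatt
AGGAAGT was searched on both strands. It was found once each in the promoters of *Mrc1*, at 211 to 205 bases before the start, *C1qb*, at 53 to 47, and *C1qc*, at 195 to 189, always on the strand opposite to the gene, and not in those of *Mertk* and *Cd36*. Of all 32851 promoters of this length, 7.69% held it. Searched likewise, TGANTCA (AP-1), TTGCNNAA (C/EBP) and TATAAA (the TATA box) were in none of the 5 windows, against 6.75%, 9.56% and 12.4% of all promoters. The share of G and C was highest in *Mertk* with 63.6% and lowest in *Cd36* with 43.2%, around a median of 52.4% over all promoters. *Mertk* held 7 CpG and *C1qc* 2, beside a median of 6.

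In the fibroblasts given SL or SFGL, *Cd14* and *Emr1* were higher than in untreated cells on both days, *Cd36* was lower, and the C1q chains were at or near 0. At day 12, 2 of the 10 genes were higher in SL, against 14.2% of 12332 genes, and 1 was lower, against 13.5%. In SFGL at day 12, 3 of the 10 were higher, against 14.7% of 12326 genes, and 2 lower, against 17%. At day 21, 2 were higher in SL, against 11.9% of 12371 genes, and 1 lower, against 12.3%. In SFGL at day 21, 2 were higher, against 14% of 12415 genes, and 2 lower, against 15.9%. These shares are over the genes with at least 1 FPKM in 1 of the 2 libraries. Only 5 of the 10 reached that in SL and SFGL at day 12, 4 in SL at day 21 and 5 in SFGL at day 21. The calls of higher are thus 2 of 5, 3 of 5, 2 of 4 and 2 of 5 and rest on few genes. Among those tested, *Emr1* in each comparison, *Csf1r* in SFGL on both days and *Msr1* in SL at day 12 were under 1 FPKM in uFIB. They entered only through the treated library, so a call of lower was not possible for them. For the library labelled FGL, only 3 of the 10 reached 1 FPKM there or in uFIB on each day. None of them was called at day 12, where 2.96% of all 11905 genes were higher and 0.302% lower. None was called at day 21 either, where 0.479% of 11692 were higher and 0.376% lower.

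**Figure D3:**
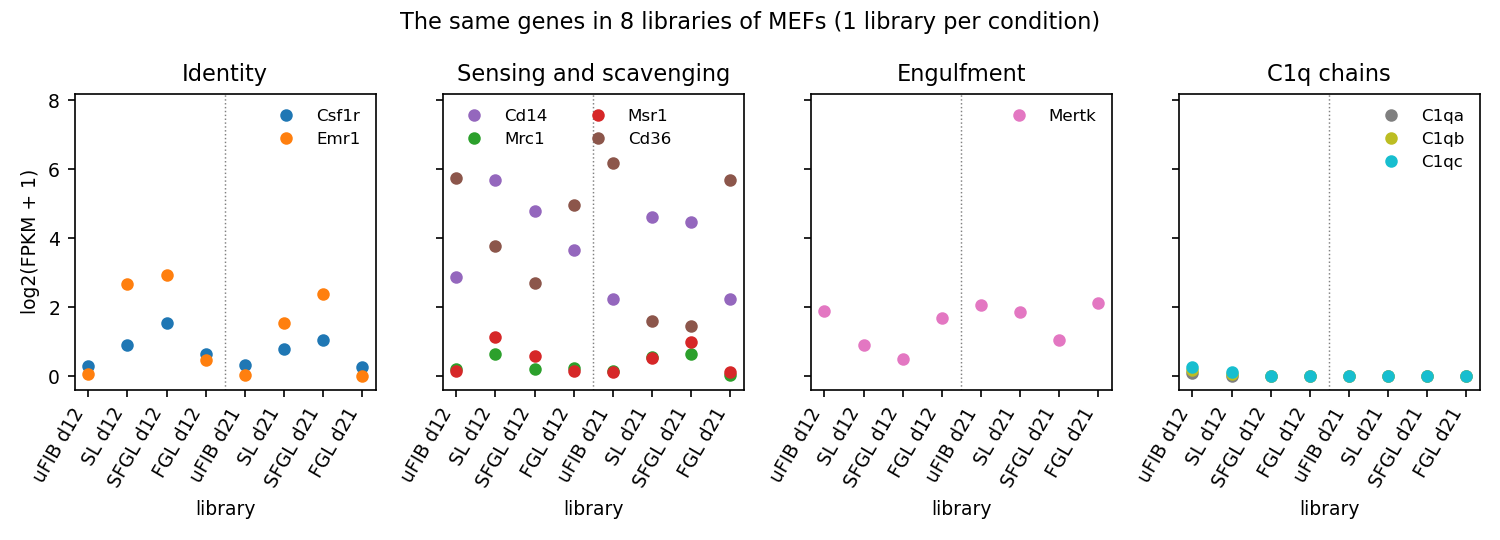
Level of the 10 genes, as log2(FPKM + 1), in 8 single libraries of MEFs, with day 12 left and day 21 right of the dotted line. Emr1 and Cd14 lie above uFIB in SL and SFGL on both days, Cd36 lies below it, and the C1q chains are at or near 0 in every library.

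*Cd14* had the highest level of the set in SL and SFGL on both days. At day 12 untreated cells had 6.30 FPKM of it, SL cells 50.2, SFGL cells 26.5 and FGL cells 11.6, and at day 21 the same order gave 3.70, 23.4, 21.0 and 3.75 FPKM. Both SL and SFGL were above both untreated libraries on either day, by 2.81 and 1.91 at day 12 and by 2.38 and 2.23 at day 21 on the log2 scale. FGL at day 12 lay between, 0.78 above uFIB.

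*Emr1* was likewise higher in SL and SFGL than in uFIB, at far lower levels than *Cd14*. At day 12, against 0.0359 FPKM in untreated cells, SL reached 5.35, SFGL 6.69 and FGL 0.386, and at day 21 the values were 0.0251, 1.89 and 4.24 FPKM with 0 listed for FGL. SL was above uFIB by 2.62 and SFGL by 2.89 at day 12, and by 1.50 and 2.35 at day 21. *Csf1r* stayed under 2 FPKM throughout, with 0.223, 0.884, 1.92 and 0.546 FPKM at day 12 and 0.239, 0.734, 1.05 and 0.203 FPKM at day 21. On log2(FPKM + 1), *Csf1r* was called in SFGL at day 12 only, 1.26 above uFIB. With smaller pseudocounts it was also called in SFGL at day 21. The ligand gene *Csf1*, in contrast, was read at 148 FPKM in uFIB and 65.2 in SL at day 12 and at 118 and 136 FPKM at day 21.

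The scavenger receptors that were strong in MAC were weak here. The day 12 levels of *Msr1*, in the order uFIB, SL, SFGL and FGL, were 0.111, 1.18, 0.511 and 0.116 FPKM, and those of day 21 were 0.0905, 0.427, 0.989 and 0.0811 FPKM. SL and SFGL were the 2 highest libraries on each day, yet neither passed the limit on log2(FPKM + 1). The difference in SL at day 12 was 0.97, and it passed the limit with smaller pseudocounts. *Mrc1* lay between 0.0182 and 0.573 FPKM over the 8 libraries and was called in none. *C1qa* was read at 0.0624 FPKM in uFIB at day 12 and listed at 0 in the other libraries. *C1qb* and *C1qc* had 0.128 and 0.193 FPKM in uFIB and 0.0408 and 0.0824 FPKM in SL at day 12, and were listed at 0 in the remaining 6 libraries.

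*Cd36* and *Mertk* ran the other way. Untreated cells of day 12 had 53.1 FPKM of *Cd36*, SL cells 12.6, SFGL cells 5.47 and FGL cells 30.2, and on day 21 the same order gave 72.4, 2.05, 1.74 and 50.7 FPKM. Its difference from uFIB was -2.00 for SL at day 12 and -4.59 at day 21, and for SFGL -3.07 and -4.74. *Mertk* had 2.69, 0.875, 0.416 and 2.22 FPKM at day 12 and 3.14, 2.60, 1.05 and 3.38 FPKM at day 21. It was called lower in SFGL on both days, with differences of -1.38 and -1.01, and in SL on neither, with -0.98 and -0.20. The fibroblast markers (*Col1a1*, *Col1a2*, *Col3a1*, *Dcn*, *Pdgfra*, *Pdgfrb* and *Thy1*) were lower with them, 7 of 7 at day 12 and 6 of 7 at day 21, with sums at day 12 of 7211 FPKM for uFIB, 2508 for SL and 2041 for SFGL, and at day 21 of 5619, 1571 and 1244 FPKM. Their part in the values of *Cd36* and *Mertk* was not tested.

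SFGL, which the label sets apart from SL by *Fli1* and *Gata2*, differed from it in few of the 10 genes. *Gata2* was read at 68.8 FPKM for SL and 110 for SFGL at day 12 and at 62.6 and 132 at day 21, whereas *Fli1* was no higher in the library labelled SFGL, with 46.7 and 41.2 FPKM at day 12 and 34.4 and 27.8 at day 21. At day 12, SFGL was lower than SL for 1 of the 10, *Cd36*, by 1.07, against 0.61% of 11798 genes, and higher for none, against 0.229%. At day 21 none of the 10 was called, against 0.773% of 11901 genes higher and 0.437% lower. On each day only 5 of the 10 reached 1 FPKM in SL or SFGL and could be called. *Emr1* was above its SL level in SFGL on both days, by 0.28 and 0.86, and *Cd14* was below it, by 0.90 and 0.15, all within the 2-fold limit.

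These low levels stood beside high levels of genes shared by leukocytes. The mean log2(FPKM + 1) of *Ptprc*, *Laptm5*, *Coro1a* and *Cd52* was 7.40 in MAC, at day 12 it was 6.64 for SL and 6.63 for SFGL, and at day 21 it was 5.48 and 5.61. Set against that mean in the same sample, which avoids a direct comparison of the separately normalized tables, *Cd14* differed by -0.84 in MAC and by -0.96 in SL at day 12, whereas *Csf1r* differed by 0.48 in MAC and -5.72 in SL. *Emr1* differed by 1.07 in MAC and -3.97 in SL, *Msr1* by 1.81 and -5.51, *Mrc1* by 0.73 and -5.98, and *C1qb* by 0.79 and -6.58. *Cd14* was thus the only one of the 9 whose level beside the leukocyte genes was similar in SL at day 12 and MAC. That holds with *Ptprc* in the mean, since *Ptprc* was low in the fibroblast libraries (4.83 FPKM in SL at day 12). Without it *Cd14* differed by -1.12 in MAC and -2.32 in SL, in a reference chosen after the data were seen. *Cd14* was also read in uFIB at day 12, at 6.30 FPKM, where the 4 leukocyte genes summed to 1.14. In the library labelled FGL at day 12 it differed from the mean of all 4 by 0.11. The part of fibroblasts in its level was not tested.

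**Figure D4:**
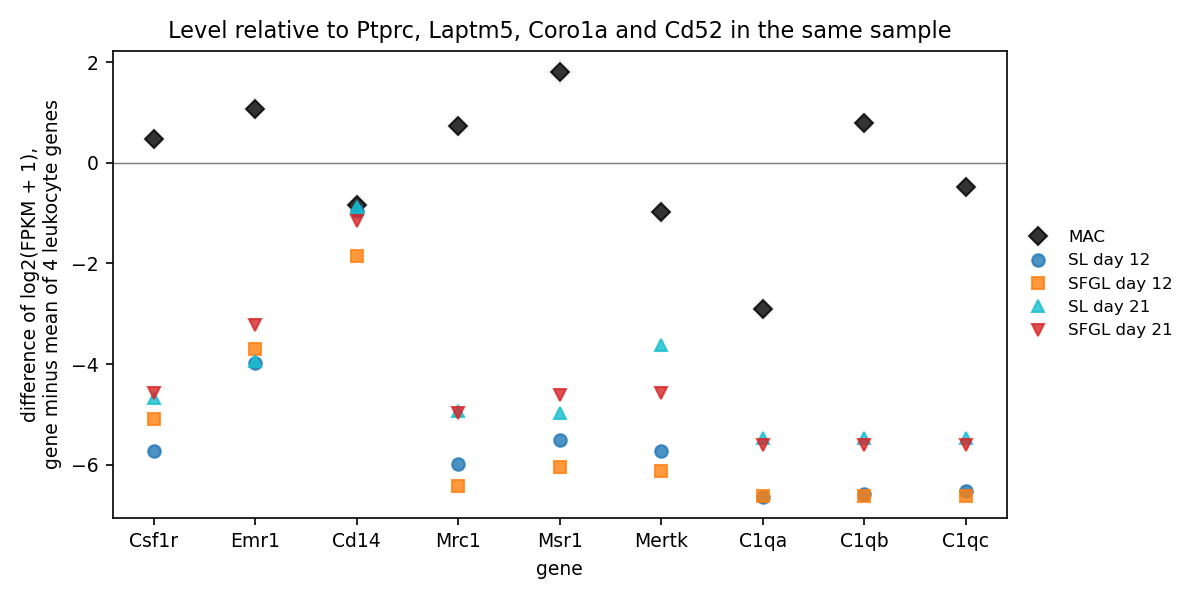
Difference between the log2(FPKM + 1) of each of 9 genes and the mean of 4 leukocyte genes in the same sample, for MAC (diamonds) and for SL and SFGL at day 12 and day 21. Cd14 lies between -0.84 and -1.85 in all 5 samples, while the other genes lie lower in the fibroblast libraries than in MAC, Csf1r at 0.48 in MAC and -5.72 in SL at day 12.

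Markers of other blood cells were abundant in the same libraries. At day 12 the 7 neutrophil markers summed to 34828 FPKM in SL and 20684 in SFGL, with 3082 for FGL and 12.8 for uFIB, and in SL *Ngp* stood at 10714 and *S100a8* at 13249 FPKM. On day 21 their sums were 14339 FPKM for SL, 8895 for SFGL, 12.7 for FGL and 244 for uFIB. The 2 eosinophil markers measured, *Prg2* and *Epx*, summed at day 12 to 1479 FPKM for SL and 5524 for SFGL and at day 21 to 2565 and 10266 FPKM, and the 4 mast cell markers to 82.2, 141, 72.7 and 133 FPKM in the same order. Of the 7 macrophage markers, which include *Csf1r*, *Emr1* and *Cd14*, 5 reached 1 FPKM in SL at day 12 and day 21 and 6 in SFGL. In uFIB, 3 of them did so at day 12 and 4 at day 21. *Lyz2* and *Itgam*, which other myeloid cells also make, had 2525 and 156 FPKM in SL at day 12, *Cd68* had 26.2, and *Fcgr1*, a high-affinity Fc receptor of macrophages, had 0.146. The part of these cell types in the levels of *Cd14* and *Emr1* was not tested.

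Genes that act with the receptors were counted from lists, to be read against the shares of all genes given above, from HP to MAC 33.4% higher and 13.9% lower, and in SL at day 12 14.2% higher and 13.5% lower. Of the ligands of CSF1R, *Csf1* had 4.22 FPKM in HP and 176 in MAC, while *Il34* was under 1 FPKM in both. All 5 of the other receptors and bridges for phosphatidylserine were higher in MAC than in HP. The bridging protein *Mfge8* went from 14.8 to 1187 FPKM, *Gas6*, the ligand of MERTK, from 22.1 to 226, and its fellow receptor *Axl* from 4.08 to 104. In SL at day 12, 3 of those 5 were lower than in uFIB and none higher, *Gas6* standing at 990 FPKM in uFIB and 213 in SL.

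Of 11 further scavenger and lectin receptors, 9 reached 1 FPKM in HP or MAC and all 9 were higher in MAC. *Clec7a*, the beta-glucan receptor, went from 3.16 to 1621 FPKM, *Clec4n* from 7.12 to 707 and *Colec12* from 4.15 to 457. In SL at day 12, 5 of the 8 tested were higher than in uFIB and none lower, *Clec7a* standing at 0.263 FPKM in uFIB and 9.40 in SL and *Scarb1* at 19.6 and 54.5. Of the 5 partners of CD14, 4 were higher in MAC, and in SL at day 12 2 of 4 were, with *Tlr4* at 9.47 FPKM in uFIB and 20.5 in SL and *Tlr2* at 4.08 and 17.8.

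Of 11 further engulfment receptors and adaptors, 9 were tested from HP to MAC, with 4 higher and 3 lower, a share of higher genes near that of all genes. *Lrp1* went from 6.42 to 175 FPKM and *Itgb5* from 4.53 to 52.1, whereas *Itgb3* went from 96.7 to 35.5. In SL at day 12, 2 were higher and 5 lower of 7. Of 6 other complement genes, the 2 that reached 1 FPKM in HP or MAC were higher in MAC, *C2* with 87.2 FPKM and *C3* with 1.29, and *C1s*, a protease that works in complex with C1q, had 0.0183 FPKM. In untreated fibroblasts of day 12, *C1s* stood at 132 FPKM where *C1qa* was at 0.0624, and 5 of the 6 were lower in SL than in uFIB.

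Of 8 regulators of macrophage genes measured, 7 were higher in MAC than in HP and none lower. *Sfpi1*, which encodes PU.1, had 16.7 FPKM in HP and 111 in MAC, *Cebpb* had 13.5 and 140, and *Irf8* reached 127 in MAC. In SL at day 12, *Sfpi1* reached 156 FPKM from 0.0485 in uFIB and *Cebpb* 153 from 76.9, while *Irf8* had 0.253 FPKM from 0.687. Of the 7 regulators tested there, 1 was higher and 3 lower.

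Other genes followed the median profile of the 9 in the stages. By Euclidean distance on log2(FPKM + 1) over the 5 stages, the nearest of 11979 genes were *Slc15a3* (0.0425), *Cd84* (0.169), *Hk3* (0.424), *Ccl12* (0.430) and *5430435G22Rik* (0.433). *Slc15a3*, a lysosomal peptide transporter, had 0.329 FPKM in HP and 235 in MAC, and *Cd84*, a leukocyte surface receptor, 0.346 and 209. Over the 8 fibroblast libraries, which share untreated cells and differ in depth, the genes with the highest Pearson's r to the median of the 10 were *Il1b* (0.990), *Cpsf2* (0.983), *Pla2g4c* (0.982), *Rph3al* (0.981) and *8030462N17Rik* (0.981). The median of the 10 ran only from 0.0692 in FGL to 1.01 in SFGL, both at day 21, on log2(FPKM + 1). The r values thus compare shape and not level. *Il1b*, which encodes the cytokine interleukin 1 beta, was listed at 0 in uFIB on both days. It had 15.9 and 3.56 FPKM in SL and SFGL at day 12 and 8.18 and 26.6 at day 21.

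By the annotation (GENCODE), all 10 are protein-coding genes, and each of the 9 in the stages had 1 start site in the values. *Emr1* lies at chr17:57358686-57483529 (plus), *Msr1* at chr8:39581700-39642678 (minus), *Mrc1* at chr2:14229414-14332023 (plus) and *Mertk* at chr2:128698997-128802188 (plus) in mm10, *Csf1r* and *Cd14* on chromosome 18 and *Cd36* on chromosome 5. *Csf1r* overlaps *Hmgxb3* and *Mertk* overlaps *Gm14011*, each on the opposite strand, so that where strand was not used in counting their reads could be mixed, and *Csf1r* and *Mrc1* also hold the microRNA genes *Mir6983* and *Mir511*.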

How the data were processed

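RNA-seq of 18 mouse samples was used, 10 from 5 stages and 8 from MEFs, grouped by their labels. All values are FPKM as the authors deposited them. Per the labels, the stage libraries were made from ribosome-depleted RNA. Per the supplemental methods, reads came from a SOLiD sequencer and were aligned with SHRiMP to mm10, kept where unique, freed of duplicates with Picard and quantified with Cufflinks. The labels also name TopHat, Bowtie and HOMER. Versions, and whether strand was used in counting, are not given in the sources used here. The stage values combine replicates, with 1 value per start site, and the 2 tables were normalized separately, so levels were compared within a table. Near-identical gene copies lose reads when only unique alignments count, and the removal of duplicates caps the highest values. Among the stage values, 1 further column stayed out, as it matches none of the samples. The paper places hemogenic endothelium between HB and HP, a stage without a sample here, so the step from HB to HP spans it.

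The 22089 start-site rows were summed per gene. Changes were taken on log2(FPKM + 1) and called at 2-fold with at least 1 FPKM in 1 of the 2 samples, in Python 3.11.15 with pandas 2.3.3 and NumPy 2.4.6. FPKM do not hold read numbers, so no count test, interval or floor was computed, and relative depth was read from values under 0.3 FPKM. The calling step was tested on the deposited values with known changes put in and no noise added. That checks the counting only, and no change was put into values near 0. All 10 genes are named; of each list, the 3 genes highest in MAC and the 3 highest in SL were eligible, with markers where a label or cell type is described, and *C1s*, which comes under the second of these. A gene of the lists is not reported here. The 5 genes nearest to the median profile are named for each table. The 10 genes and the lists were chosen with earlier results of these data known. Alternatives were pseudocounts of 0.1 and 0.001, a 4-fold limit, scaling to the same upper quartile or sum, no filter, the highest start-site row, both uFIB libraries as reference, and the leukocyte mean without *Ptprc*.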

Additional observations from a re-analysis of the deposited data

Results flagged for a closer look

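*Mertk* in the library labelled FGL differed from uFIB in opposite directions on the 2 days, by -0.197 at day 12 and by 0.0817 at day 21 on the log2(FPKM + 1) scale, with 1 library for each. The difference between the days was not tested, and both values are within the 2-fold limit.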

How the results depend on the processing

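No paired analysis was possible because the stage values combine the replicates and the fibroblasts have 1 library per condition, and for the same reason no replicate could be left out. The 9 higher genes from HP to MAC stayed 9 under every alternative run, with the smallest change (*Cd14*) at 2.06 after scaling to the same sum, and the median of the 9 at 6.18 there and 8.96 with a pseudocount of 0.001. With a pseudocount of 0.001 the largest of these changes were those of *C1qa* (14.4) and *C1qb* (11.1), ahead of *Msr1* (10.9). The median share in MAC was 99.6% after scaling to the same upper quartile and 99.5% after scaling to the same sum.

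A 4-fold limit left 1 higher from HB to HP, and, against uFIB, 0 lower in SL at day 12, 1 higher and 1 lower in SFGL at day 12, 1 higher in SL at day 21 and 1 lower in SFGL at day 21, with 0 lower in SFGL against SL at day 12. The number lower in SL at day 12 was 2 with pseudocounts of 0.1 or 0.001, with either scaling and with the mean of both uFIB libraries, since *Mertk* then passed the limit. With that mean, FGL at day 12 had 1 higher and 1 lower, and SFGL at day 21 had 1 lower. Pseudocounts of 0.1 or 0.001 gave, for SFGL against SL, 1 higher and 2 lower at day 12 and 1 higher and 1 lower at day 21. Of the counts of called genes and the median share in MAC, the other 114 values stayed as they were or within 1.5 times. Among these, pseudocounts of 0.1 or 0.001 took the number higher than uFIB from 2 to 3 in SL at day 12 and in SFGL at day 21. *Msr1* passed the limit in the former and *Csf1r* in the latter. Of the values of single genes (changes from HP to MAC and levels relative to the leukocyte genes), 103 moved, 9 stayed and 1 reversed. Any difference in the second decimal counted there as moved. Relative to the leukocyte genes, *Cd14* in FGL at day 12 turned from above to below, at -0.88 without *Ptprc*. Depth in reads is unknown, so values under 1 FPKM, the C1q chains in fibroblasts among them, show only that little was read.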

Other observations

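In MAC, genes known from other blood lineages were read beside the macrophage receptors. *Pf4*, a platelet chemokine, had 274 FPKM in MAC and 23.0 in HP, while the platelet genes *Itga2b* and *Gp9* had 7.75 and 0.871 FPKM in MAC and 62.5 and 4.05 in HP. *Prg2*, an eosinophil granule protein, had 29.6 FPKM in MAC, where *Epx* had 0.407. Among the other markers, the mast cell protease *Cpa3* had 18.7 FPKM in MAC, while *Mcpt4*, *Cma1* and *Tpsb2* had 0, 0.193 and 0. The neutrophil genes *S100a8* and *S100a9* had 39.1 and 13.7 FPKM in MAC. Of the 6 neutrophil markers tested from HP to MAC, 3 were higher and 3 lower. *Mpo*, *Elane* and *Prtn3* were those lower, with 9.57, 1.52 and 7.91 FPKM in HP and 0.584, 0.0306 and 1.55 in MAC.

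The untreated fibroblasts of day 21 held more myeloid RNA than those of day 12. *S100a8* was read at 126 FPKM against 2.97, *Ngp* at 32.5 against 2.17 and *Itgam* at 1.37 against 0.0366. *Cd14* was lower in the same library, 3.70 against 6.30 FPKM, and *Emr1* was near 0 in both.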
